A study of Mus musculus with 9 samples.

Results

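The subject is the nuclear genes for the subunits of oxidative phosphorylation, the 5 protein complexes of the inner mitochondrial membrane, in E14 mouse embryonic stem cells grown in 3 media. Genes were chosen by name: symbols of the Ndufa, Ndufb, Ndufc, Ndufs and Ndufv series, Sdha to Sdhd, and every symbol that begins with Uqcr, with Cox followed by 4 to 8, or with Atp5, without Cox4i2. Of 24819 symbols in the table, 82 matched: 36 of complex I, 4 of complex II, 8 of complex III, 17 of complex IV and 17 of the ATP synthase. Measured levels played no part in the choice. A name is not always a role: Ndufa4 carries a complex I name and is now regarded as a complex IV subunit, Cox7a2l is a factor for joining complexes into supercomplexes, and Atp5s is related to the ATP synthase by name. The subunits that the mitochondrial genome encodes were not analysed here.

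EPSCM libraries came from cells in expanded potential stem cell medium, 2iLIF libraries from cells in N2B27, a serum-free base, with leukemia inhibitory factor (LIF) and the inhibitor pair called 2i, and ES libraries from cells in high-glucose DMEM with fetal bovine serum and LIF. Cells of all 3 groups belonged to the same line, with no genetic change named, and grew on gelatin, with no feeder layer named. Each medium had 3 libraries of polyadenylated RNA, and nothing states that they came from separate cultures, so a p-value measures how these libraries vary, and that may be technical. Replicates are numbered here in the order of the sample labels and are not paired across media.

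In oxidative phosphorylation, complex I takes electrons from NADH and complex II takes them from succinate. They pass through ubiquinone, complex III and cytochrome c to complex IV, which reduces oxygen; complexes I, III and IV pump protons, and the ATP synthase uses their return to make ATP. Several subunits of complex IV exist in a widely expressed form and in a form best known from heart, skeletal muscle or testis, and embryonic stem cells are known for running glycolysis beside respiration.

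Complex IV isoforms gave the widest differences between media, so the upstream sequences of 3 such pairs are shown, 250 bases before the annotated start of each gene on its own strand, read 5′ to 3′ with CG dinucleotides in capitals. In each pair the tissue isoform comes before its widely expressed partner. Sequences and positions are from the RefSeq promoter table of GRCm38.p6, while the expression values were made on mm9, so the positions do not apply to that build.
Cox7a1: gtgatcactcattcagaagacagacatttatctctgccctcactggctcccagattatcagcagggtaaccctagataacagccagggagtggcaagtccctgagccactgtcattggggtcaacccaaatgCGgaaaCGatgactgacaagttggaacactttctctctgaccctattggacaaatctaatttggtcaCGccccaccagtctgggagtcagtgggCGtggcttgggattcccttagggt
Cox7a2: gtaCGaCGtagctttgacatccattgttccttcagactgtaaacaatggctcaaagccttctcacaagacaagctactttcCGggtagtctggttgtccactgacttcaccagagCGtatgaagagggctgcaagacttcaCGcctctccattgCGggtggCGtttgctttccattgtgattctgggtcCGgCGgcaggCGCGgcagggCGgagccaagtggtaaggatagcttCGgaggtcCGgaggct
Cox6b2: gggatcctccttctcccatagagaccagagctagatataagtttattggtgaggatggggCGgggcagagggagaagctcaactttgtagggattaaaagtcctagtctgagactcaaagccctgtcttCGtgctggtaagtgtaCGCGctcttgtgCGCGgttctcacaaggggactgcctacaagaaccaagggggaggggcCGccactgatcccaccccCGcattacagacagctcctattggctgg
Cox6b1: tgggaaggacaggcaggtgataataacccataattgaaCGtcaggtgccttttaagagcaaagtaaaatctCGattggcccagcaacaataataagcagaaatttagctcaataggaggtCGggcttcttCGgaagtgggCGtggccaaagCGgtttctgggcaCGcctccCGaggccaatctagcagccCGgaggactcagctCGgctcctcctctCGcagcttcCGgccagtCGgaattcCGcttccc
Cox7b2: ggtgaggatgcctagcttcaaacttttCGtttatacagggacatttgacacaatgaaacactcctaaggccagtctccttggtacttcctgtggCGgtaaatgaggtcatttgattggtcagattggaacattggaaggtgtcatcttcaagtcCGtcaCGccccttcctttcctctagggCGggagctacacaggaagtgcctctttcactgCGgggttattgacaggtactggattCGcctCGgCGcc
Cox7b: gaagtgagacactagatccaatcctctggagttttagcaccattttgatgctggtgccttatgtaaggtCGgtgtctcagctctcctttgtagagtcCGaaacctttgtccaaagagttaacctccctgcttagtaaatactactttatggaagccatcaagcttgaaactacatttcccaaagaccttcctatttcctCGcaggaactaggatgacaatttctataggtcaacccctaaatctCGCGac

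The Cox7a1 window lies at chr7:30183921-30184170 (plus strand) and holds 4 CG dinucleotides, against 14 in that of Cox7a2 at chr9:79759854-79760103 (minus strand). Cox6b2, at chr7:4753095-4753344 (minus strand), has 8 and Cox6b1, at chr7:30626115-30626364 (minus strand), has 14. The third pair goes the other way, with 9 for Cox7b2 at chr5:71548206-71548455 (minus strand) and 5 for Cox7b at chrX:106015450-106015699 (plus strand). Over the 68 subunit genes with an entry in the table the median was 14 CG dinucleotides, from 1 to 35, against a median of 6 over all 27025 genes of the table and 17 over the 9689 tested genes in it. A gene with several windows is counted by the one with the most.

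Transcription factors NRF1 and the ETS-family factor GABP are known regulators of respiratory chain genes. Their usual motifs were searched: for NRF1, GCGCA and GCGC with any 1 base between them, and for the ETS family, CCGGAAG. The search covered both strands of the same windows, with each motif counted by itself where their ends share letters. The NRF1 motif was present upstream of 13 of the 68 subunit genes (19.1%), against 4.23% of all genes of the table and 9.55% of tested genes. The ETS motif was present for 12 (17.6%), against 7.83% and 16.1%. At least 1 of them was found for 22 genes (32.4%), against 11.3% and 23.9%, and in none of the 4 tissue isoforms with an entry. Cox6a1, a widely expressed complex IV subunit at chr5:115348959-115349208 (minus strand), has both and is shown with them in capitals: the NRF1 motif begins 162 and again 117 bases before the start, and the ETS motif, here on the opposite strand, 16 bases before it. These are letter matches only.
Cox6a1: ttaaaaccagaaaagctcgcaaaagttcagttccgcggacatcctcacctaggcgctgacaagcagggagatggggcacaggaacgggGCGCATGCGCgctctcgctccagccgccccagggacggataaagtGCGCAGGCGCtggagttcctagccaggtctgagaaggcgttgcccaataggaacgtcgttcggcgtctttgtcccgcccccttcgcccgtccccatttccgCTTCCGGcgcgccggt

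The deposited table gives FPKM, the fragments of a gene scaled by its transcript length and by the library. A gene was tested where 3 or more of the 9 libraries reached 1 FPKM. That left 12330 genes, 80 of the 82 subunit genes among them. Heart and muscle isoforms Cox6a2 and Cox8b were left out as too low: Cox6a2 had 0.245, 0.493 and 0.589 FPKM in EPSCM, 0, 0.0708 and 0 in 2iLIF and 0, 0 and 0.0763 in ES, and Cox8b had 0.912, 0.3397 and 0.148 FPKM in EPSCM, 0, 0 and 0 in 2iLIF and 0.349, 0 and 0 in ES. Differences below are in log2(FPKM + 1) ± SE, a scale on which low genes appear to change less than they do. "Higher" or "lower" with a p-value means a limma adjusted p under 0.05 over all tested genes. Depth is not stated, and a rough estimate from the steps between low values is 19300000 to 30000000 fragments per library. Among the 80 tested subunit genes, the lowest value in any library then rests on at least about 227 fragments, except for Atp5s (69.5), Cox8c (1.38) and Cox7b2 (0).

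The first 3 principal components of all tested genes held 48.9%, 41.3% and 6.46% of the variance. In each medium 1 library had been named beforehand, with earlier results of these data known: EPSCM replicate 2, 2iLIF replicate 1 and ES replicate 1. These 3 are referred to as the libraries that stand apart and the other 6, a pair in each medium, as the close libraries. Over all tested genes, the median size of the shift from the close libraries was 0.17 in EPSCM, 0.14 in 2iLIF and 0.16 in ES. Between the 2 close libraries of a medium it was 0.05, 0.05 and 0.07. Summed FPKM of 6 embryonic stem cell markers was 4573 to 5402 in EPSCM, 6058 to 7348 in 2iLIF and 5294 to 6476 in ES, and each marker averaged at least 1 FPKM in each medium. The 5 primitive endoderm markers summed to 34.7 to 37.8 in EPSCM, 5.52 to 5.93 in 2iLIF and 8.17 to 9.11 in ES. For 7 fibroblast markers the ranges were 10.9 to 13.6, 3.75 to 4.18 and 15.0 to 17.6 in the same order of media, for 4 trophoblast markers 1.12 to 1.25, 3.597 to 4.16 and 0.621 to 0.758, and for 4 neural markers 25.4 to 29.2, 21.1 to 24.6 and 64.7 to 72.5. The part of other cell types in the results below was not tested, and fewer cells of a type and less RNA per cell cannot be told apart in such samples.

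Together the 82 genes held 3.42% to 3.47% of a library's FPKM in EPSCM, 3.35% to 3.40% in 2iLIF and 3.54% to 3.61% in ES, so the ranges of the media did not overlap. The share of subunit genes that differed by less than 0.25 in size was 43.8% for EPSCM against ES, 67.5% for EPSCM against 2iLIF and 52.5% for 2iLIF against ES, where all tested genes had 26.9%, 32.2% and 33.1%. The median size of the difference was 0.30 for EPSCM against ES, where all tested genes had 0.50. It was 0.19 for EPSCM against 2iLIF, where all had 0.42, and 0.23 for 2iLIF against ES, where all had 0.40.

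In EPSCM against ES, 16 subunit genes were higher and 28 lower of 80 (limma, adjusted p under 0.05). That is 55.0% of them, where 73.1% of all tested genes passed, 41.6% higher and 31.5% lower. Their median difference was -0.08, against 0.09 over all tested genes. The balance turns with the scaling. After quantile normalization 27 were higher (33.8%) and 18 lower (22.5%), with a median of 0.07, where all tested genes had 36.9% and 35.4%. With libraries scaled to the same median ratio, 10 were higher (12.5%) and 38 lower (47.5%), with a median of -0.18. All tested genes then had 37.4% higher and 35.6% lower, and their median moved to 0.01. Libraries of the 2 media did not overlap for 46 subunit genes, and for 74.1% of all tested genes.

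In EPSCM against 2iLIF, 18 were higher and 12 lower (37.5%), where 68.0% of all tested genes passed, 36.6% higher and 31.4% lower. The median was 0.06, against 0.03, and 35 genes had no overlap, against 71.1% of all. After quantile normalization 27 were higher (33.8%) and 11 lower (13.8%), where all tested genes had 33.8% and 34.4%.

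In 2iLIF against ES, 8 were higher and 28 lower (45.0%), where 67.0% passed, 34.8% higher and 32.2% lower. The median was -0.13, against 0.03, and 39 genes had no overlap, against 70.6% of all. Quantile normalization gave 20 higher and 17 lower, and removing a trend over transcript length 22 higher and 20 lower, with a median of 0.02. All tested genes had 32.9% higher and 31.9% lower after quantile normalization, and 32.6% and 33.9% with the length trend removed.

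The share that passed also moved with the treatment of the libraries that stand apart. With them as a covariate, 66 subunit genes (82.5%) passed in EPSCM against ES, where 87.0% of all tested genes did. The number was 67 (83.8%, against 84.8%) for EPSCM against 2iLIF and 65 (81.3%, against 84.0%) for 2iLIF against ES. A difference of at least 1 in size, beside the p-value, was reached by 3, 4 and 3 subunit genes in the same order of comparisons, against 19.7%, 16.1% and 14.7% of all tested genes. Any difference among the media passed limma's F test in 51 of 80 subunit genes (63.8%), against 85.5% of all tested genes, and 23 passed in none of the 3 comparisons.

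The close libraries of a medium resemble each other, and with their mean as 1 value beside the library that stands apart, 18 calls of subunit genes were lost in EPSCM against ES, 16 in EPSCM against 2iLIF and 19 in 2iLIF against ES. The fit then holds 2 values per medium, and 60.9%, 53.8% and 51.9% of all tested genes passed. Of the calls described below, those lost in EPSCM against ES were Ndufs1, Ndufv1, Ndufb7, Ndufa5, Ndufa11, Ndufa13, Ndufs8, Ndufa3, Ndufc2, Sdhd and Uqcrc1. In EPSCM against 2iLIF they were Ndufa7, Ndufa4, Sdha, Sdhd, Uqcr10, Cox7a2, Cox6c, Cox7c, Atp5e, Atp5c1, Atp5g1 and Atp5a1. In 2iLIF against ES they were Ndufv3, Ndufa12, Uqcrc1, Uqcrfs1, Cox6b1, Cox7a2l, Cox4i1, Cox7c and Atp5a1.

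**Figure D1:**
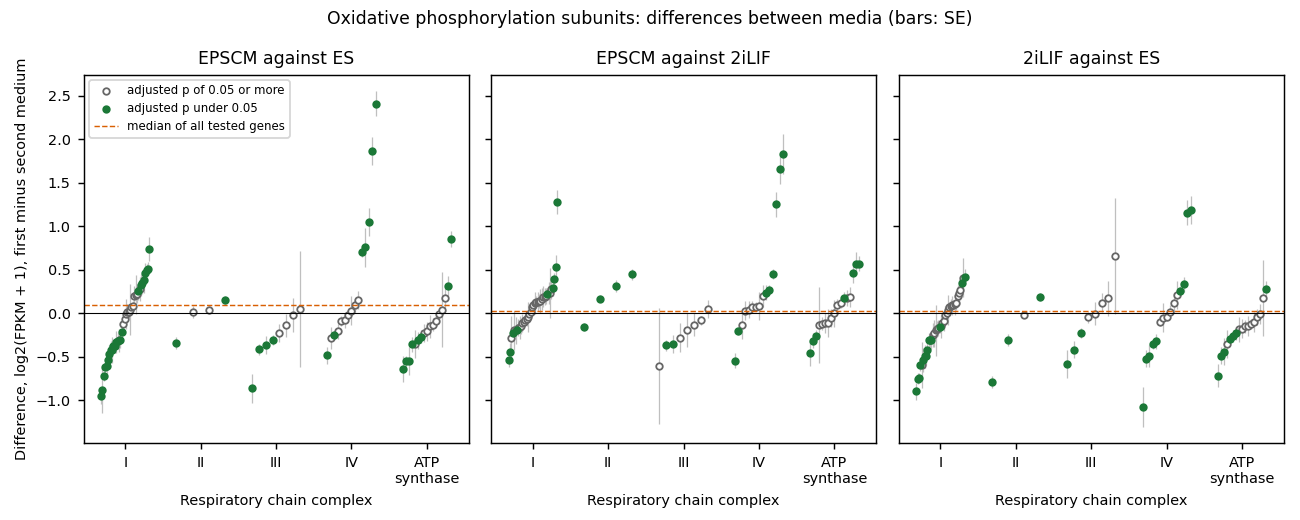
Difference of each tested subunit gene between media, on the log2(FPKM + 1) scale with its SE, by complex and sorted within it; filled points passed at an adjusted p under 0.05 and the dashed line is the median of all tested genes. Most points lie within 1 of 0, and the highest in the comparisons with EPSCM are complex IV isoforms, up to 2.41.

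Complex I, the entry point for NADH, had 8 higher and 15 lower of 36 in EPSCM against ES, 5 and 4 in EPSCM against 2iLIF, and 2 and 12 in 2iLIF against ES. That is 63.9%, 25% and 38.9% passed, where 73.1%, 68.0% and 67.0% of all tested genes passed in the 3 comparisons. Its members sum to 4504 ± 214 FPKM in EPSCM, 4111 ± 217 in 2iLIF and 4522 ± 208 in ES (SD, n = 3). Ndufs1, the largest core subunit with several iron-sulfur clusters, had 48.4, 27.9 and 47.7 FPKM in EPSCM, 37.5, 58.3 and 54.6 in 2iLIF and 56.2, 89.02 and 84 in ES. It was lower in EPSCM than in ES (-0.88 ± 0.26, adjusted p = 0.0132), and in each medium the library that stands apart was the lowest. Ndufv1, the core subunit that binds NADH, had 77.5, 94.1 and 77.5 FPKM in EPSCM, 99.4, 84.9 and 85.3 in 2iLIF and 123, 108 and 104 in ES. Its level was lower in EPSCM than in ES (-0.42 ± 0.10, adjusted p = 0.004795) and overlapping between EPSCM and 2iLIF.

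Ndufv3, an accessory subunit beside the NADH-binding site, went the other way. It had 267, 350.4 and 273 FPKM in EPSCM, 142, 108 and 115 in 2iLIF and 196, 170.5 and 161 in ES, so every EPSCM library lay above all others and every 2iLIF library below. It was higher in EPSCM than in 2iLIF (1.28 ± 0.14, adjusted p = 3.43e-05) and than in ES (0.74 ± 0.14, adjusted p = 9.58e-04), and lower in 2iLIF than in ES (-0.53 ± 0.14, adjusted p = 0.00731). Ndufa7, another accessory subunit, had 473, 593 and 489 FPKM in EPSCM, 416, 329 and 330.3 in 2iLIF and 498, 390.1 and 394 in ES. EPSCM was higher than 2iLIF (0.53 ± 0.14, adjusted p = 0.007101), while EPSCM and ES overlapped. Ndufa8, an accessory subunit on the intermembrane side, had 58.1, 62.6 and 55.4 FPKM in EPSCM, 54.9, 43.2 and 45.6 in 2iLIF and 97.6, 85.9 and 85.4 in ES. The lowest libraries were those of 2iLIF (-0.90 ± 0.10, adjusted p = 4.05e-05 for 2iLIF against ES). The accessory subunit Ndufa10 had 78.8, 83.4 and 79.05 FPKM in EPSCM, 77.7, 70.4 and 71.96 in 2iLIF and 134, 119 and 119 in ES. Both EPSCM (-0.62 ± 0.06, adjusted p = 2.43e-05) and 2iLIF (-0.75 ± 0.06, adjusted p = 8.89e-06) were lower than ES.

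Further genes with complex I names are given by their differences. Ndufb3 was lower in EPSCM than in ES (-0.72 ± 0.06, adjusted p = 4.37e-06) and in 2iLIF than in ES (-0.74 ± 0.06, adjusted p = 4.83e-06). Ndufs6, Ndufa9 and Ndufb10 were lower in EPSCM than in ES by 0.54, 0.47 and 0.38. Ndufa6, Ndufb9 and Ndufb7 were higher in EPSCM than in ES, at 0.51 ± 0.08, 0.49 ± 0.08 and 0.46 ± 0.12, and Ndufb9 was also higher in 2iLIF than in ES (0.35 ± 0.08, adjusted p = 0.00322). Ndufa4 had 302, 282 and 286 FPKM in EPSCM, 325, 340.4 and 328 in 2iLIF and 303, 332 and 312 in ES. EPSCM was lower than 2iLIF (-0.19 ± 0.06, adjusted p = 0.0138), a call lost without EPSCM replicate 3 or 2iLIF replicate 2, and the other 2 comparisons had none. Calls with an adjusted p close to the threshold, those of Ndufa5, Ndufa11, Ndufa13, Ndufs8, Ndufa3 and Ndufc2 in EPSCM against ES and of Ndufa12 in 2iLIF against ES, were each lost without ES replicate 2, and also when any 1 of at least 2 others was left out. For Ndufa13, 7 of the 9 such fits ended the call, all except those without 2iLIF replicate 1 or ES replicate 1.

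Complex II, which is also the succinate dehydrogenase of the citric acid cycle, had 4 members and summed to 567 ± 11.6 FPKM in EPSCM, 491 ± 13.3 in 2iLIF and 591 ± 19.1 in ES. In EPSCM against 2iLIF 3 of them were higher and the catalytic subunit was lower, where 36.6% of all tested genes were higher and 31.4% lower. In EPSCM against ES 1 was higher and 1 lower, where all tested genes had 41.6% and 31.5%. In 2iLIF against ES 1 was higher and 2 were lower, where all had 34.8% and 32.2%. Sdhc, a membrane anchor, had 160.2, 173 and 162 FPKM in EPSCM, 128, 116 and 118 in 2iLIF and 224, 198 and 207 in ES. No libraries overlapped between media (0.45 ± 0.07, adjusted p = 2.55e-04 for EPSCM against 2iLIF; -0.34 ± 0.07, adjusted p = 0.001202 for EPSCM against ES; -0.79 ± 0.07, adjusted p = 6.91e-06 for 2iLIF against ES). The iron-sulfur subunit Sdhb had 128, 135 and 122 FPKM in EPSCM, 109.6, 98.4 and 100.2 in 2iLIF and 137, 120.1 and 124 in ES. The lowest libraries were in 2iLIF (0.32 ± 0.07, adjusted p = 0.00335 for EPSCM against 2iLIF). Sdhd, the other anchor, had 168, 169 and 167 FPKM in EPSCM, 152, 148 and 148 in 2iLIF and 152, 151 and 149.9 in ES. Its highest libraries were in EPSCM (0.17 ± 0.04, adjusted p = 0.005597 against 2iLIF; 0.15 ± 0.04, adjusted p = 0.00831 against ES). Sdha, the catalytic flavoprotein, had 106, 104 and 109 FPKM in EPSCM, 117, 119 and 118 in 2iLIF and 100.3, 107 and 103 in ES. EPSCM was lower than 2iLIF (-0.15 ± 0.05, adjusted p = 0.0175), a call lost without EPSCM replicate 1, 2iLIF replicate 2 or 2iLIF replicate 3 and after quantile normalization, as was that of Sdhc in EPSCM against ES after quantile normalization.

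Complex III passes electrons from ubiquinol to cytochrome c. The 8 genes of complex III summed to 1726 ± 27.5 FPKM in EPSCM, 2061 ± 44.4 in 2iLIF and 2093 ± 58.7 in ES. All 3 EPSCM libraries lay below the other 6. For EPSCM against ES the complex had 0 higher, 4 lower and 4 that did not pass. The lower share was 50%, where all tested genes had 41.6% higher and 31.5% lower. Those 4 were Uqcrq, Uqcrh, Uqcrc1 and Uqcrfs1. For EPSCM against 2iLIF it had 0 higher and 2 lower, and most genes, 6 of 8, did not pass. The lower share was 25%, where all tested genes had 36.6% higher and 31.4% lower. Uqcrq, a small ubiquinone-binding subunit, had 72.2, 101 and 75.5 FPKM in EPSCM, 123, 92.5 and 87.2 in 2iLIF and 171, 146 and 135 in ES (-0.86 ± 0.17, adjusted p = 0.00125 for EPSCM against ES). Uqcrh, the hinge subunit that holds cytochrome c1, had 326, 312 and 323 FPKM in EPSCM, 437, 399.7 and 406 in 2iLIF and 456, 411 and 416 in ES. Each EPSCM library lay below all libraries of 2iLIF (-0.37 ± 0.06, adjusted p = 5.69e-04) and ES (-0.41 ± 0.06, adjusted p = 2.39e-04).

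Uqcrc1, a core subunit, had 217, 256 and 211 FPKM in EPSCM, 242, 207 and 212 in 2iLIF and 326, 275 and 281 in ES. Both EPSCM and 2iLIF lay below ES without overlap (-0.37 ± 0.10, adjusted p = 0.00953 and -0.42 ± 0.10, adjusted p = 0.00573). The Rieske iron-sulfur subunit Uqcrfs1 had 129, 118 and 129.8 FPKM in EPSCM, 132, 135 and 132 in 2iLIF and 148, 156 and 161 in ES. It was lower in EPSCM (-0.30 ± 0.06, adjusted p = 0.00105) and in 2iLIF (-0.22 ± 0.06, adjusted p = 0.00712) than in ES. Uqcr10, a small subunit, had 400.0, 476 and 401 FPKM in EPSCM, 614, 514 and 500.1 in 2iLIF and 539, 492 and 460.2 in ES. Its level was lower in EPSCM than in 2iLIF (-0.35 ± 0.11, adjusted p = 0.016), a call lost without EPSCM replicate 1 or 3. After quantile normalization the calls of Uqcrc1 and Uqcrfs1 were lost.

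Complex IV had 5 higher and 2 lower of 15 tested in EPSCM against ES, 6 and 2 in EPSCM against 2iLIF, and 4 and 5 in 2iLIF against ES. The shares that passed, 46.7%, 53.3% and 60%, compare with 73.1%, 68.0% and 67.0% of all tested genes. Of those higher, 4, 3 and 2 were tissue isoforms. Cox7b2, among them in both comparisons with EPSCM, passed the filter through its EPSCM libraries alone. Its genes summed to 6034 ± 287 FPKM in EPSCM, 5741 ± 344 in 2iLIF and 6184 ± 375 in ES, with overlap between media. Cox7a1, the heart and muscle form of subunit VIIa, had 146, 179 and 135 FPKM in EPSCM, 67.8, 62.2 and 59.9 in 2iLIF and 33.6, 23.3 and 27.4 in ES. Each EPSCM library was above all 2iLIF libraries and each 2iLIF library above all ES libraries. Its differences were 2.41 ± 0.14, adjusted p = 6.10e-07 for EPSCM against ES, 1.25 ± 0.14, adjusted p = 4.68e-05 for EPSCM against 2iLIF and 1.16 ± 0.14, adjusted p = 8.43e-05 for 2iLIF against ES, and no other setting or left-out library ended these calls.

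The widely expressed form of the same subunit, Cox7a2, had 193, 184 and 189 FPKM in EPSCM, 224, 213 and 214 in 2iLIF and 222, 223 and 227 in ES. It was lower in EPSCM than in 2iLIF (-0.20 ± 0.05, adjusted p = 0.00407) and than in ES (-0.25 ± 0.05, adjusted p = 0.00111), although its sign against ES turned to 0.022 after quantile normalization. As a share of the FPKM of both forms, Cox7a1 made up 44.7% ± 4.13 in EPSCM, 22.5% ± 0.674 in 2iLIF and 11.1% ± 1.87 in ES (SD, n = 3). Cox7a1 and Cox7a2 together came to 342 ± 19.7 FPKM in EPSCM, 281 ± 10.04 in 2iLIF and 252 ± 5.08 in ES. Cox7a2l had 199, 202 and 199 FPKM in EPSCM, 151, 144 and 142 in 2iLIF and 131, 121 and 115 in ES. Every EPSCM library was above all others (0.46 ± 0.06, adjusted p = 1.18e-04 against 2iLIF; 0.71 ± 0.06, adjusted p = 5.54e-06 against ES), and 2iLIF was higher than ES (0.25 ± 0.06, adjusted p = 0.00447).

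Cox6b2, known from testis, had 96.3, 136 and 104 FPKM in EPSCM, 146, 111 and 111 in 2iLIF and 60.7, 51.7 and 47.3 in ES. It was higher than in ES in both EPSCM (1.05 ± 0.16, adjusted p = 2.70e-04) and 2iLIF (1.19 ± 0.16, adjusted p = 1.56e-04), and EPSCM and 2iLIF overlapped (-0.13 ± 0.16, adjusted p = 0.485). Cox6b1, its widely expressed partner, had 511, 565 and 497 FPKM in EPSCM, 829, 734 and 732 in 2iLIF and 667, 572 and 579.7 in ES. This form was lower in EPSCM than in 2iLIF (-0.54 ± 0.09, adjusted p = 4.22e-04) and higher in 2iLIF than in ES (0.34 ± 0.09, adjusted p = 0.00717). Cox6b2 was 17.5% ± 1.80 of the pair in EPSCM, 13.8% ± 1.07 in 2iLIF and 8.06% ± 0.445 in ES.

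The remaining tissue isoforms were low. Cox7b2, known from testis, had 3.57, 2.05 and 2.94 FPKM in EPSCM, 0, 0.427 and 0.233 in 2iLIF and 0, 0.134 and 0 in ES. Only the EPSCM libraries reached 1 FPKM, so Cox7b2 entered the test through the medium where it is high. Its differences, 1.66 ± 0.16 against 2iLIF and 1.87 ± 0.16 against ES, are therefore given without p-values. Cox7b had 308, 305 and 310.5 FPKM in EPSCM, 288, 298 and 288 in 2iLIF and 303, 328 and 303 in ES, so Cox7b2 stayed at 0.918% ± 0.240 of the pair even in EPSCM. Cox8c, also known from testis, had 1.85, 4.26 and 3.35 FPKM in EPSCM, 0.149, 0.129 and 0.111 in 2iLIF and 1.81, 1.64 and 0.812 in ES. It was lowest in 2iLIF (1.83 ± 0.23, adjusted p = 8.97e-05 for EPSCM against 2iLIF; -1.07 ± 0.23, adjusted p = 0.00258 for 2iLIF against ES) and higher in EPSCM than in ES (0.76 ± 0.23, adjusted p = 0.01399), a call lost after quantile normalization and without ES replicate 3. Cox8a, the common form, had 899, 961 and 903 FPKM in EPSCM, 931, 838 and 858 in 2iLIF and 931, 809.8 and 853 in ES and passed in no comparison. Cox6a1 had 609.9, 730.5 and 637 FPKM in EPSCM, 732, 607 and 601 in 2iLIF and 657, 552 and 568 in ES and also passed in none.

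Of 4 skeletal and heart muscle markers, 3 (Myod1, Myog and Ckm) averaged under 1 FPKM in every medium. The fourth, Actn2, a sarcomere actinin, was at 5.097 ± 0.581 FPKM in EPSCM, 1.02 ± 0.151 in 2iLIF and 1.004 ± 0.0369 in ES (1.60 ± 0.08, adjusted p = 2.79e-07 for EPSCM against ES), and the 4 summed to 5.05 to 6.30 FPKM in EPSCM, 0.966 to 1.29 in 2iLIF and 1.25 to 1.41 in ES. Their part in the level of Cox7a1 was not tested.

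**Figure D2:**
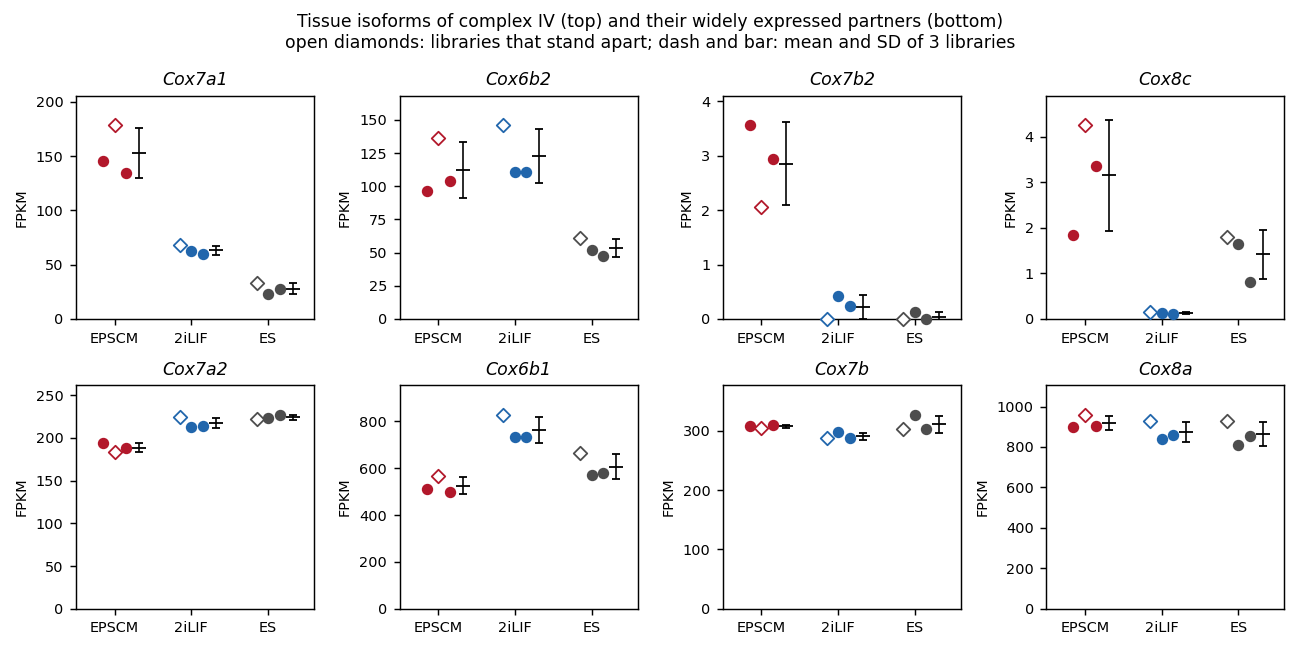
FPKM of 4 tissue isoforms of complex IV (top) and their widely expressed partners (bottom) in each library, by medium, with mean and SD of 3 libraries; open diamonds are the libraries that stand apart. Cox7a1 is at 135 to 179 FPKM in EPSCM, 59.9 to 67.8 in 2iLIF and 23.3 to 33.6 in ES, while Cox8a and Cox7b are close in all 3 media.

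Of the 11 complex IV genes that are not tissue isoforms, 1 was higher and 2 lower in EPSCM against ES, 3 and 2 in EPSCM against 2iLIF, and 2 and 4 in 2iLIF against ES. The shares that passed were 27.3%, 45.5% and 54.5%, where 73.1%, 68.0% and 67.0% of all tested genes passed. Cox4i1, the regulatory subunit that binds ATP, had 767, 938 and 749 FPKM in EPSCM, 819, 663 and 650.1 in 2iLIF and 1131, 945 and 909 in ES. It was lower in 2iLIF than in ES (-0.49 ± 0.13, adjusted p = 0.00856), while EPSCM overlapped both. Cox5b, which binds zinc, had 424, 482 and 416 FPKM in EPSCM, 471, 407 and 407 in 2iLIF and 693, 581 and 576 in ES. EPSCM (-0.48 ± 0.10, adjusted p = 0.00184) and 2iLIF (-0.52 ± 0.10, adjusted p = 0.00134) were both lower than ES. Cox6c and Cox7c were lower in 2iLIF than in ES, at -0.36 ± 0.05 and -0.32 ± 0.08, and higher in EPSCM than in 2iLIF, at 0.27 ± 0.05 and 0.24 ± 0.08. For Cox7c the call against ES was lost after quantile normalization, and that of EPSCM against 2iLIF without EPSCM replicate 1 or 2 or 2iLIF replicate 2 or 3. Cox5a had 507, 363 and 483 FPKM in EPSCM, 361, 453 and 455 in 2iLIF and 358, 495 and 468 in ES. In each medium the library that stands apart was the lowest, and no comparison passed.

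The ATP synthase had 2 higher and 6 lower of 17 in EPSCM against ES, 4 and 3 in EPSCM against 2iLIF, and 1 and 6 in 2iLIF against ES. These are 47.1%, 41.2% and 41.2% passed, against the same 73.1%, 68.0% and 67.0%. Its genes summed to 6599 ± 45.0 FPKM in EPSCM, 6418 ± 166 in 2iLIF and 7300 ± 193 in ES, and the 3 ES libraries lay above the other 6. The catalytic beta subunit Atp5b had the highest level of all 82 genes, 1578, 1622 and 1589 FPKM in EPSCM, 1525, 1442 and 1449 in 2iLIF and 1676, 1569.7 and 1562 in ES, and passed in no comparison. The alpha subunit Atp5a1 had 753, 818 and 761 FPKM in EPSCM, 735, 664 and 667 in 2iLIF and 869, 807 and 794 in ES. It was lower in 2iLIF than in ES (-0.26 ± 0.07, adjusted p = 0.00788). Its higher level in EPSCM than in 2iLIF (0.17 ± 0.07, adjusted p = 0.0435) was lost in 7 of 9 fits that left out 1 library, all except those without 2iLIF replicate 1 or ES replicate 1. Quantile normalization ended the call of 2iLIF against ES.

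Subunit c, the rotating ring, is made from 3 genes that encode the same mature protein. Atp5g1 had 214, 275 and 217 FPKM in EPSCM, 381, 294 and 296 in 2iLIF and 424, 336 and 339 in ES. This copy was lower in EPSCM than in ES (-0.64 ± 0.14, adjusted p = 0.00316) and than in 2iLIF (-0.46 ± 0.14, adjusted p = 0.0193), the second call being lost without EPSCM replicate 1, EPSCM replicate 3 or 2iLIF replicate 1. Atp5g2 had 318, 393 and 313 FPKM in EPSCM, 334, 281 and 279 in 2iLIF and 339, 278 and 284 in ES and Atp5g3 had 493, 385 and 495 FPKM in EPSCM, 451, 517 and 505 in 2iLIF and 479, 563 and 534 in ES, with no call for either. Atp5g1 made up 22.7% ± 2.96 of the 3 genes' FPKM in EPSCM, 29.0% ± 3.21 in 2iLIF and 30.7% ± 3.04 in ES, and Atp5g2 32.9% ± 3.798, 26.8% ± 1.63 and 25.1% ± 1.89 in the same order.

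Among the small subunits, Atp5e, the epsilon subunit of the stalk, had 316, 367 and 313 FPKM in EPSCM, 264, 205 and 204 in 2iLIF and 432, 336 and 339.7 in ES. The lowest libraries were in 2iLIF (0.57 ± 0.13, adjusted p = 0.00435 for EPSCM against 2iLIF; -0.72 ± 0.13, adjusted p = 0.00122 for 2iLIF against ES). Atp5d, the delta subunit beside it, had 225, 269.9 and 229 FPKM in EPSCM, 236, 202 and 201 in 2iLIF and 322, 293 and 281 in ES. Its level was lower in 2iLIF than in ES (-0.49 ± 0.10, adjusted p = 0.00171). Atp5l, subunit g of the membrane part, had 108, 118 and 117 FPKM in EPSCM, 141, 141 and 129 in 2iLIF and 167, 176 and 162 in ES. It was lower in EPSCM than in 2iLIF and lower in both than in ES (-0.26 ± 0.06, -0.55 ± 0.06 and -0.30 ± 0.06), the last call being lost after quantile normalization. Atp5c1, the gamma subunit that turns in the catalytic head, had 312, 242 and 295 FPKM in EPSCM, 182, 212 and 221 in 2iLIF and 201, 237 and 241 in ES. EPSCM was higher than 2iLIF (0.46 ± 0.12, adjusted p = 0.00693). Atp5s was low, at 4.73, 5.16 and 5.01 FPKM in EPSCM, 2.95, 3.56 and 2.596 in 2iLIF and 2.42, 2.201 and 2.28 in ES, and highest in every EPSCM library (0.85 ± 0.09, adjusted p = 2.15e-05 against ES; 0.57 ± 0.09, adjusted p = 3.50e-04 against 2iLIF).

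**Figure D3:**
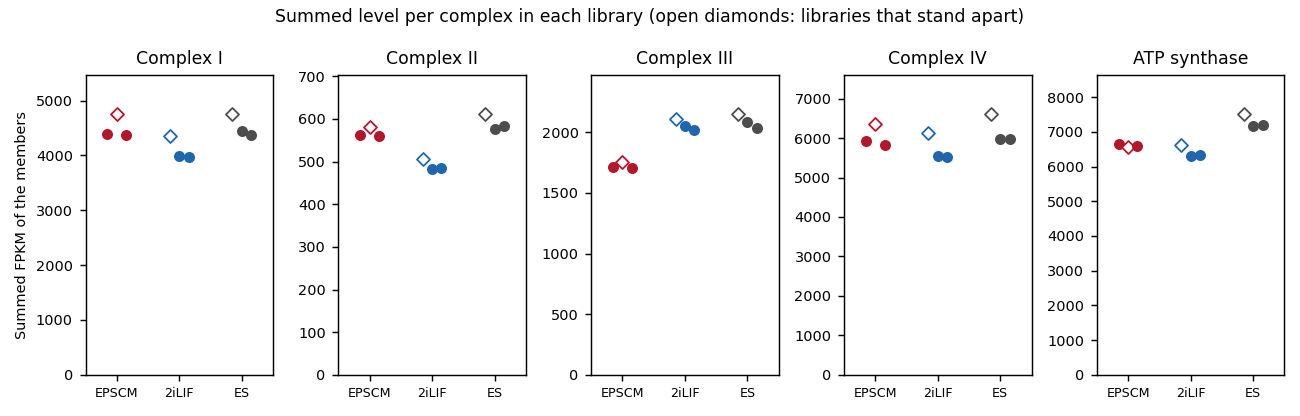
Summed FPKM of the subunit genes of each complex in every library, by medium, with open diamonds for the libraries that stand apart. Complex III is at 1707 to 1758 in EPSCM, below all libraries of 2iLIF and ES, and the ATP synthase is highest in ES at 7181 to 7523.

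By position, 6 of the 82 genes lie on chromosome 1 in the RefSeq table, among them Ndufs1, Ndufb3, Ndufa10, Sdhc and Cox5b. All 6 were lower in EPSCM than in ES, with a median of -0.67, and 5 were lower in 2iLIF than in ES, again with a median of -0.67. In EPSCM against 2iLIF, 1 was higher and 1 lower. Over the 657 tested genes of this chromosome the median was -0.29 for EPSCM against ES, with 49.8% lower, and -0.28 for 2iLIF against ES, with 49.6% lower. Off chromosome 1 the median of all tested genes was 0.11 and 0.04. Leaving out these 6, the subunit genes had 16 higher and 22 lower of 74 in EPSCM against ES (median -0.04) and 8 higher and 23 lower in 2iLIF against ES (median -0.10). In EPSCM against ES that is 21.6% higher and 29.7% lower, where all tested genes off chromosome 1 had 42.5% and 30.5%. In 2iLIF against ES it is 10.8% and 31.1%, where they had 35.6% and 31.2%. The number of copies of chromosome 1 in these cells was not tested.

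**Figure D4:**
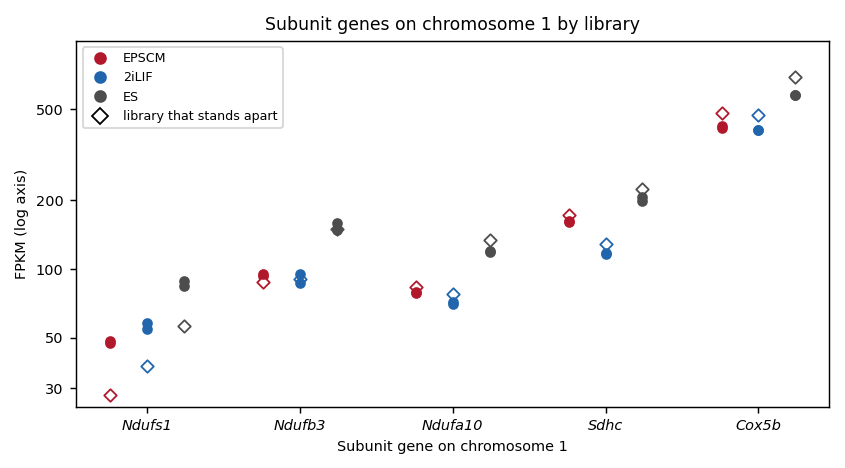
FPKM on a log axis of 5 subunit genes of chromosome 1 in each library, by medium; open diamonds are the libraries that stand apart. ES libraries lie above those of EPSCM and 2iLIF for Ndufb3, Ndufa10, Sdhc and Cox5b, while for Ndufs1 the lowest ES library, 56.2, falls below the highest of 2iLIF, 58.3.

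Subunit transcripts are short: the median length was 756.5 bases, from 315 to 3171, and 52 of 80 (65.0%) were under 1000 bases, against a median of 2828 and 6.87% under 1000 over 11891 tested genes with a length. Lengths came from RefSeq and GENCODE transcripts of GRCm38, not from the annotation behind the FPKM. In the libraries that stand apart, 73 of 80 subunit genes (91.3%) shifted the same way in all 3 media against the close libraries, 50 up and 23 down, where 76.0% of all tested genes did so. The median shift was 0.12, against 0.05 over all tested genes and 0.21 over 84 cytoplasmic ribosomal protein genes, which are also short. Over all tested genes the shift was 0.14 in EPSCM, 0.17 in 2iLIF and 0.15 in ES for transcripts under 600 bases, and 0.00, -0.02 and -0.02 at 5000 bases and over.

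Media also differed along transcript length. Under 600 bases the median difference over all tested genes was -0.06 for EPSCM against ES and -0.12 for 2iLIF against ES, while at 5000 bases and over it was 0.30 and 0.25. For EPSCM against 2iLIF it was 0.02 and 0.04 at those ends. With the length trend removed, subunit genes had 24 higher (30%) and 25 lower (31.25%) in EPSCM against ES (median -0.02). Tested genes with a length had 36.61% higher and 35.99% lower there. In EPSCM against 2iLIF 17 subunit genes were higher (21.25%) and 16 lower (20%, median 0.01), against 34.03% and 34.96% of tested genes with a length. With the trend removed, the signs of Sdhd and Uqcrh in 2iLIF against ES, where neither passed before, became positive, at 0.11 and 0.13. Whether these shifts arose in the cells or in the libraries was not tested.

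Single genes went either way, short and long transcripts alike. Uqcrb, a complex III subunit of 535 bases that binds ubiquinone, had 157, 47.1 and 153 FPKM in EPSCM, 73.6, 241 and 228 in 2iLIF and 44.8, 164 and 138 in ES. Its shifts were -1.70, -1.66 and -1.72 in the libraries that stand apart in EPSCM, 2iLIF and ES. Its media differences reached no call, also with the close libraries of each medium averaged (adjusted p = 0.593 for EPSCM against 2iLIF and 0.562 for 2iLIF against ES). Only in fits that use the split of the libraries seen in these data, or down-weight libraries, did it pass. With that split as a covariate it was lower in EPSCM than in 2iLIF (-0.61 ± 0.05, adjusted p = 2.68e-06) and higher in 2iLIF than in ES (0.66 ± 0.05, adjusted p = 1.49e-06), and with the close libraries alone the values were -0.59 ± 0.07 and 0.64 ± 0.07. Atp5mpl, a small ATP synthase protein of 366 bases, had 371, 153 and 371 FPKM in EPSCM, 191, 386 and 379.6 in 2iLIF and 169, 331 and 345 in ES. Its shifts were -1.27, -0.999 and -0.999. Ndufb4, Ndufs1, Ndufs4 and Uqcrc2 had mean shifts of -0.72, -0.65, -0.54 and -0.49. Uqcrq, Cox6b2, Atp5g1 and Ndufa3 went up, by 0.39, 0.38, 0.35 and 0.34. Between the close libraries the median size of the difference over subunit genes was 0.03 to 0.04.

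**Figure D5:**
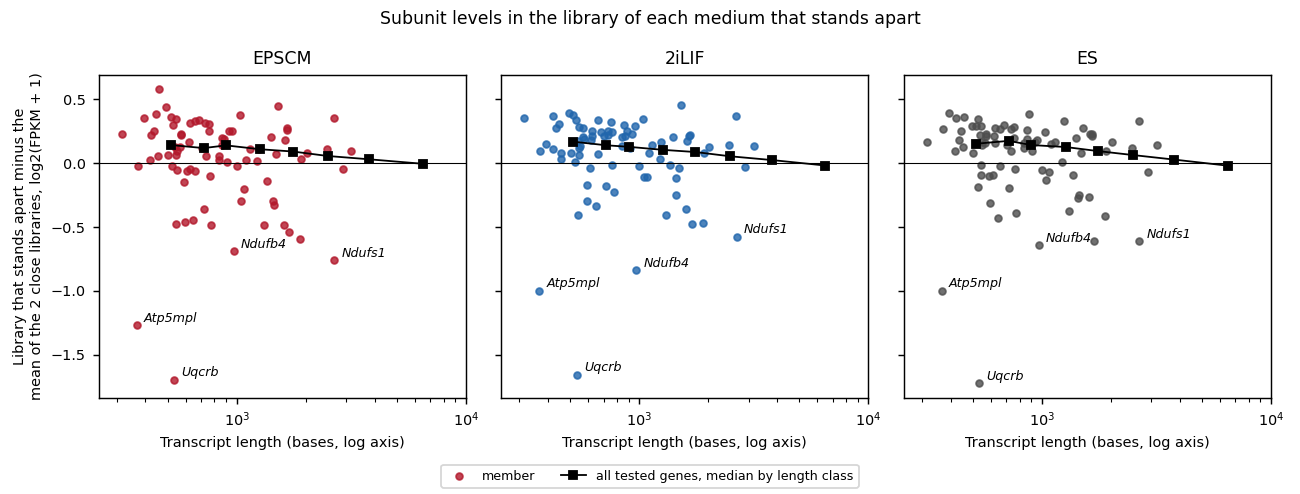
Level of each tested subunit gene in the library of each medium that stands apart minus the mean of the 2 close libraries, on the log2(FPKM + 1) scale, against transcript length on a log axis; squares are medians of all tested genes by length class. Most points lie above 0 like the squares at short lengths, and Uqcrb, Atp5mpl, Ndufb4 and Ndufs1 lie far below in all 3 media.

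Of 5 relatives outside the chosen names, 3 differed widely. Ndufa4l2, a paralog of Ndufa4 induced in hypoxia, was at 104 ± 12.5 FPKM in EPSCM, 1.12 ± 0.248 in 2iLIF and 31.04 ± 3.2 in ES (SD, n = 3). Its difference was 5.63 ± 0.12, adjusted p = 3.69e-09 for EPSCM against 2iLIF and 1.72 ± 0.12, adjusted p = 1.64e-06 for EPSCM against ES. Cox4i2, the hypoxia-linked form of Cox4i1, was at 19.5 ± 3.01 FPKM in EPSCM, 1.09 ± 0.532 in 2iLIF and 5.96 ± 1.24 in ES. Cox4i1 averaged at least 711 FPKM in each medium. Higd1a, a hypoxia-induced protein that binds complex IV, was at 95.4 ± 1.64 FPKM in EPSCM, 26.2 ± 0.834 in 2iLIF and 40.7 ± 1.23 in ES. All 3 were higher in EPSCM than in each other medium and lower in 2iLIF than in ES. The other 2, Ndufab1, the acyl carrier protein of complex I, and Higd2a, a paralog of Higd1a, passed in no comparison.

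Proteins that build the complexes were set against 41.6% higher and 31.5% lower among all tested genes in EPSCM against ES. Of 21 complex IV assembly genes, 3 were higher (14.3%) and 11 lower (52.4%), the same counts after quantile normalization and with the same median ratio. Cox20, which helps insert subunit II, was at 5.71 ± 1.04 FPKM in EPSCM, 19.8 ± 2.83 in 2iLIF and 15 ± 2.65 in ES and lies on chromosome 1, and Taco1, a translational activator of the mitochondrial Cox1 message, was at 5.91 ± 0.267 FPKM in EPSCM, 10.6 ± 0.591 in 2iLIF and 14.95 ± 0.453 in ES. Sco2, a copper chaperone, was at 2.57 ± 0.331 FPKM in EPSCM, 7.23 ± 0.503 in 2iLIF and 6.83 ± 0.677 in ES. Of 9 tested assembly genes of complexes II and III, 2 were higher (22.2%) and 5 lower (55.6%), led by Uqcc3, at 13.96 ± 1.63 FPKM in EPSCM, 39.95 ± 4.404 in 2iLIF and 39.3 ± 6.34 in ES (-1.42 ± 0.13, adjusted p = 8.94e-06 for EPSCM against ES; -1.45 ± 0.13, adjusted p = 9.31e-06 for EPSCM against 2iLIF). Complex I assembly genes had 2 higher (15.4%) and 6 lower (46.2%) of 13, with Foxred1 at 16.2 ± 1.28 in EPSCM and 26.4 ± 2.003 FPKM in ES, and of 5 ATP synthase assembly and regulation genes 2 were lower and none higher. Quantile normalization left 1 higher of the complex II and III list and 1 lower of the ATP synthase list.

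Proteins of the mitochondrial ribosome, which translate the subunits encoded in mitochondria, were higher in 3 (3.85%) and lower in 55 (70.5%) of 78 genes in EPSCM against ES (median -0.55), where 41.6% of all tested genes were higher and 31.5% lower. In EPSCM against 2iLIF 6 were higher and 34 lower (43.6%, median -0.20), against 36.6% and 31.4% of all. In 2iLIF against ES 2 were higher and 51 lower (65.4%, median -0.37), against 34.8% and 32.2%. After quantile normalization 54, 32 and 49 were lower in the 3 comparisons. Mrpl44 was at 22.2 ± 1.41 FPKM in EPSCM, 34.7 ± 1.97 in 2iLIF and 64.1 ± 6.17 in ES and Mrpl15 at 38.1 ± 0.6405 FPKM in EPSCM, 41.9 ± 1.81 in 2iLIF and 95.3 ± 1.85 in ES, both on chromosome 1, and Mrpl19, on chromosome 6, at 4.74 ± 0.463 FPKM in EPSCM, 9.86 ± 0.467 in 2iLIF and 13.4 ± 1.005 in ES. Cytoplasmic ribosomal protein genes had 18 higher (21.4%) and 10 lower (11.9%) of 84 in EPSCM against ES, which scaling to the same median ratio turned to 9 and 11. Proteasome core genes had 0 higher and 11 lower (64.7%) of 17, and 1 and 8 after quantile normalization.

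Genes that carry electrons or nucleotides around the chain included several tissue forms. Slc25a31, the testis form of the ADP/ATP carrier, was at 12.02 ± 0.896 FPKM in EPSCM, 0.606 ± 0.146 in 2iLIF and 0.738 ± 0.0706 in ES, and Cyct, the testis cytochrome c, at 10.3 ± 0.688 FPKM in EPSCM, 3.57 ± 0.776 in 2iLIF and 2.68 ± 0.504 in ES. With levels under 1 FPKM in 2iLIF and ES, Slc25a31 was tested only through its EPSCM libraries. Slc25a4, the heart and muscle carrier, was at 285 ± 21.8 FPKM in EPSCM, 215 ± 17.05 in 2iLIF and 129 ± 10.4 in ES, higher in EPSCM than in 2iLIF (0.40 ± 0.09, adjusted p = 0.00256) and than in ES (1.14 ± 0.09, adjusted p = 2.96e-06). Slc25a5, the common carrier, was at 506 ± 2.999 FPKM in EPSCM, 397 ± 18.4 in 2iLIF and 734 ± 18.6 in ES, highest in ES, and Cycs, the somatic cytochrome c, at 37.4 ± 0.759 FPKM in EPSCM, 31.6 ± 0.464 in 2iLIF and 48.99 ± 4.02 in ES. Of the 11 genes of this list, 9 were higher (81.8%) and 1 lower in EPSCM against 2iLIF, where 36.6% of all tested genes were higher and 31.4% lower. Scaling to the same median ratio left 8 higher and 1 lower. With the close libraries averaged, 6 were higher (54.5%) and 0 lower, where all tested genes had 29.7% and 24.1%. In EPSCM against ES 5 were higher (45.5%, against 41.6% of all) and 2 lower.

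Of 17 genes of the citric acid cycle and pyruvate dehydrogenase, 7 were higher and 5 lower in EPSCM against ES, that is 41.2% and 29.4%, close to the 41.6% and 31.5% of all tested genes. The counts were the same in EPSCM against 2iLIF, where 36.6% of all tested genes were higher and 31.4% lower. Scaling to the same median ratio turned the first to 4 higher and 7 lower. Suclg2, the beta subunit of the GTP-forming succinyl-CoA ligase, was at 57.9 ± 2.18 FPKM in EPSCM, 25.97 ± 0.767 in 2iLIF and 41.7 ± 1.11 in ES, and Suclg1, the alpha subunit of both succinyl-CoA ligases, at 53.8 ± 1.74 FPKM in EPSCM, 70.9 ± 1.82 in 2iLIF and 115 ± 2.07 in ES. Pdk1, a kinase that shuts off pyruvate dehydrogenase, was at 30 ± 2.18 FPKM in EPSCM, 8.92 ± 0.484 in 2iLIF and 43.2 ± 2.303 in ES, and Pdp2, a phosphatase that restores it, at 14.4 ± 0.918 FPKM in EPSCM, 40.1 ± 1.26 in 2iLIF and 6.16 ± 0.305 in ES. Of the 6 kinase and phosphatase genes of pyruvate dehydrogenase, 4 were higher (66.7%) and 1, Pdp2, lower in EPSCM than in 2iLIF. All tested genes had 36.6% higher and 31.4% lower there. In 2iLIF against ES 1, again Pdp2, was higher and 4 lower (66.7%), where all had 34.8% and 32.2%. With the close libraries averaged, 2 were higher and 1 lower in the first comparison, and 1 higher and 2 lower in the second. All tested genes then had 29.7% and 24.1% in the first, and 27.0% and 24.9% in the second. Pdk4, another of the kinases, was at 6.85 ± 0.225 FPKM in EPSCM, 1.35 ± 0.1403 in 2iLIF and 2.12 ± 0.192 in ES.

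Regulators of mitochondrial gene expression had 5 higher (33.3%) and 6 lower (40.0%) of 15 tested in EPSCM against ES, against 41.6% and 31.5% of all tested genes. Esrra, a nuclear receptor that acts on respiratory genes, was at 14.3 ± 0.622 FPKM in EPSCM, 7.78 ± 0.5004 in 2iLIF and 7.55 ± 0.496 in ES, and Polg, the catalytic subunit of the mitochondrial DNA polymerase, at 36.8 ± 3.41 FPKM in EPSCM, 23.2 ± 2.13 in 2iLIF and 16.9 ± 1.58 in ES. Twnk, the mitochondrial helicase, was at 13.4 ± 0.888 FPKM in EPSCM, 25.4 ± 1.52 in 2iLIF and 23.9 ± 0.445 in ES, and Tfb2m, a mitochondrial transcription factor on chromosome 1, at 3.84 ± 0.114 FPKM in EPSCM, 7.62 ± 0.2697 in 2iLIF and 8.46 ± 0.723 in ES. Esrra and Polg were higher in EPSCM than in both other media, and Twnk and Tfb2m lower.

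Many respiratory chain genes have processed copies elsewhere in the genome, and 13 of the 82 overlap another protein-coding gene in the RefSeq table, among them Uqcrq and Cox7a2. Whether shared or opposite-strand fragments entered their values was not tested, so single values of such genes are uncertain.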

How the data were processed

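RNA of 9 libraries, 3 per medium, was sequenced from stranded mRNA libraries, per the labels' protocols. The deposited values are FPKM per gene symbol, made by the authors on mm9 with tools that include STAR and Cuffnorm, per the submitters' processing notes. Which versions, annotation, scaling between libraries and strand setting they chose was not given in the sources used here. Because FPKM is relative to transcript length and library, abundant genes shift others. No column belonged to another sample (0 columns left out).

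Values were taken as log2(FPKM + 1), with genes of at least 1 FPKM in at least 3 libraries kept. One limma model (limma 3.58.1, R 4.3.3, mean per medium, trended empirical Bayes) covered all 9 libraries, with Benjamini-Hochberg adjustment over 12330 genes per comparison. It was tested on simulated data. Lists are described by counts and medians, with no test over a list. Named genes were, per complex and comparison, the 2 with the largest difference, a fixed set of core subunits and all isoforms; of other lists, up to 3 per comparison. Some genes that this rule names are not reported here. The subunit names, the lists, the tests and the alternatives were chosen with earlier results of these data known. The isoforms that were set apart are forms known from heart, muscle or testis. Transcript length, chromosome and promoters were looked up by symbol in GRCm38 tables of RefSeq and GENCODE; all 82 genes had a length, and 68 had a promoter. Depth was estimated from steps between low values of genes with a single transcript, and sets only counting error. Alternatives changed the pseudocount, filter, scaling, covariates, libraries, variance prior, weights and length trend.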

Additional observations from a re-analysis of the deposited data

How the results depend on the processing

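Counts of subunit genes that passed moved most with the treatment of the libraries that stand apart. In EPSCM against ES, the 2 close libraries of each medium averaged into 1 value left 26 (9 higher, 17 lower); 25 were higher with the close libraries only and with array weights, 10 with the same median ratio, and 27 higher and 18 lower after quantile normalization. In EPSCM against 2iLIF, the apart libraries as a covariate gave 67 (39 higher, 28 lower), the close libraries only 61 (38 and 23), array weights 57 (38 and 19) and averaging 14 (9 and 5). In 2iLIF against ES these gave 65 (21 and 44), 66 (22 and 44), 63 (20 and 43) and 17 (4 and 13), quantile normalization 20 higher and 17 lower, and removal of the length trend 22 higher. The shares of all tested genes moved too. In the 3 comparisons 87.0%, 84.8% and 84.0% passed with the covariate, 84.0%, 81.2% and 80.6% with the close libraries only, and 60.9%, 53.8% and 51.9% with averaging. For EPSCM against ES with the close libraries only, all tested genes had 46.9% higher and 37.1% lower, and subunit genes 31.3% and 51.3%. A pseudocount of 0.1 raised the genes with a difference of at least 1 in EPSCM against ES to 5. A filter on the mean, 5 FPKM or more, left 2 such subunit genes in EPSCM against 2iLIF, and 5505 and 5462 of all genes passed in EPSCM against 2iLIF and 2iLIF against ES, since fewer genes were tested. Leaving out each library in turn gave 36 to 50, 23 to 33 and 31 to 39 subunit genes passed in the 3 comparisons, and 2 to 5 genes with a difference of at least 1 in EPSCM against ES (5 without EPSCM replicate 1). Signs turned, none past the threshold in both settings, for Cox7a2 (0.022) and Cox7b (0.20) in EPSCM against ES and for Cox7a2 (0.16), Cox7b (0.14) and Sdhd (0.13) in 2iLIF against ES after quantile normalization, and for Sdhd (0.11) and Uqcrh (0.13) in 2iLIF against ES with the length trend removed. The cause was not tested. The median of the subunit genes ranged from -0.18 to 0.07, from 0.01 to 0.08 and from -0.18 to 0.04 over the alternatives in the 3 comparisons. No analysis paired by label was possible because the library labels share no replicate number across media. The covariate for the libraries that stand apart is a split seen in these data, not a pairing by label.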
